A study of Raphidocelis subcapitata with 72 samples.

Results

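Cultures of the unicellular green alga Raphidocelis subcapitata that had been exposed to magnetite nanoparticles (nFe3O4) for 4 h were compared, across all genes, with the cultures headed "neg" in the count table at the same hour. The members are the libraries with the headings T4Fe and T4neg, 3 of each, so 6 of the 17 distinct libraries of the series, built from 24 of its 72 lane samples. Messenger RNA was captured by its poly(A) tail and sequenced with a strand-specific kit. All cultures came from 1 strain, were grown for 48 h in a mineral medium at 24 °C under constant light of 130 µmol photons per square metre and second with CO2-enriched air, and were then sampled. The nFe3O4 cultures received 100 mg/L of the particles, and the neg-headed cultures, which the sample titles call control, are described as free of nanoparticles (0 mg/L). The cultures of each condition stood in 550 mL and 35 mL was taken for RNA. The labels call the 3 libraries of a group biological replicates but do not say whether they came from separate inocula. The p-values for genes are set against a spread pooled over all 17 libraries in their 6 groups, unless fewer libraries are named. In every test the spread between libraries may be technical.

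What the name neg stands for is not settled by the deposited files. Over 49 genes of a transformed table that the authors also deposited, the 3 neg-headed libraries of 4 h matched libraries headed nZVI (nanoscale zero-valent iron, also given at 100 mg/L) of the same replicate number, with Pearson's r across genes from 0.960 to 0.989. The next best library there had r of 0.898, 0.949 and 0.976 for neg-headed replicates 1 to 3. The best match was thus narrow for replicates 2 and 3. With the libraries that carry their own name, r was -0.433 to 0.433. The 3 nFe3O4 libraries of 4 h matched their own names, with r from 0.932 to 0.957. By the headings of the count table, the comparison is therefore magnetite against particle-free cultures, and by those of the transformed table it is magnetite against nZVI cultures. Each "higher" and "lower" below is a direction against the neg-headed libraries, and holds in either reading only with its own partner. These r values are across genes, which are not independent replicates, and describe the match only.

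Magnetite is a mixed ferrous and ferric oxide, whereas nZVI is metallic iron that oxidises in water and is used to clean contaminated water. Iron is a cofactor of photosystem I, ferredoxin and the cytochromes, so algae need it for photosynthesis and respiration, and free ferrous iron also drives the formation of hydroxyl radicals, so cells store and buffer it. The files give locus identifiers alone, without gene names, and no annotation was used, so no pathway is described. In each comparison at most 2 genes that rose and 2 that fell are named.

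Of 11841 genes tested, 2720 differed between the nFe3O4 and the neg-headed cultures at 4 h, which is 23.0% of them. With nFe3O4, 1459 genes were higher (12.3% of genes tested) and 1261 were lower (10.6%). The genes were tested with edgeR's quasi-likelihood test on library counts, and "changed" here and below means a Benjamini-Hochberg adjusted p below 0.05 over all genes tested. Most differences were small: the median gene among those that were higher stood at 1.59-fold (a log2 fold change of 0.67), and among those that were lower at a log2 fold change of -0.56. Over all genes tested the median size of the log2 fold change was 0.30. At least 2-fold changes passed the test in 512 genes, or 4.32% of those tested.

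RSUB_07060 was the largest rise under the naming rule. Its level was 35.9, 28.1 and 32.1 CPM (counts scaled to library size) in nFe3O4 replicates 1 to 3, and 3.61, 1.87 and 4.18 CPM in neg-headed replicates 1 to 3. All nFe3O4 libraries were high and all neg-headed libraries low, with no overlap, as the rule requires of each gene named for this comparison. Its log2 fold change was 3.30 (SE 0.32, edgeR's adjusted p = 1.97e-05), or 9.83-fold. The neg-headed libraries rest on 129, 48 and 147 counts and the nFe3O4 libraries on 1630, 791 and 1182, so counting error is small beside the difference. At 1 h the same gene stood at 31.0 CPM in both nFe3O4 libraries and between 1.97 and 2.74 CPM in the neg-headed ones.

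RSUB_09261 stood at 35.6, 25.2 and 24.95 CPM in the nFe3O4 replicates and at 4.39, 2.14 and 3.32 CPM in the neg-headed ones. The lowest nFe3O4 library was thus far above the highest neg-headed one. The log2 fold change was 3.11 (SE 0.31, edgeR's adjusted p = 1.97e-05), or 8.62-fold. Its neg-headed level at 1 h was between 1.17 and 1.98 CPM, below all 3 neg-headed libraries of 4 h, and its level with nFe3O4 at 1 h was 24.8 and 24.1 CPM. Subtracting the log2 effect of 1 h from that of 4 h gave -0.82 (SE 0.45, adjusted p = 0.425, edgeR), which did not pass.

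In the opposite direction, RSUB_02480 stood at 42.5, 43.0 and 34.9 CPM with nFe3O4 and at 95.9, 178 and 192 CPM in the neg-headed replicates. The 3 nFe3O4 libraries were close to each other, while neg-headed replicate 1 was low within its group and yet above all of them. Its log2 fold change was -1.95 (SE 0.27, edgeR's adjusted p = 2.10e-04). RSUB_04006 stood at 10.4, 8.35 and 6.87 CPM with nFe3O4 against 35.4, 30.1 and 27.7 CPM, which is -1.86 as a log2 fold change (SE 0.31, adjusted p = 7.18e-04, same test). Within the nFe3O4 group its lowest library was replicate 3, as it was at 1 h, where replicates 1 and 3 stood at 8.59 and 3.11 CPM. For RSUB_02480 and RSUB_04006 the difference between the hours was -0.02 (SE 0.39, adjusted p = 0.988) and 0.15 (SE 0.45, adjusted p = 0.931) on the log2 scale by edgeR.

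**Figure D1:**
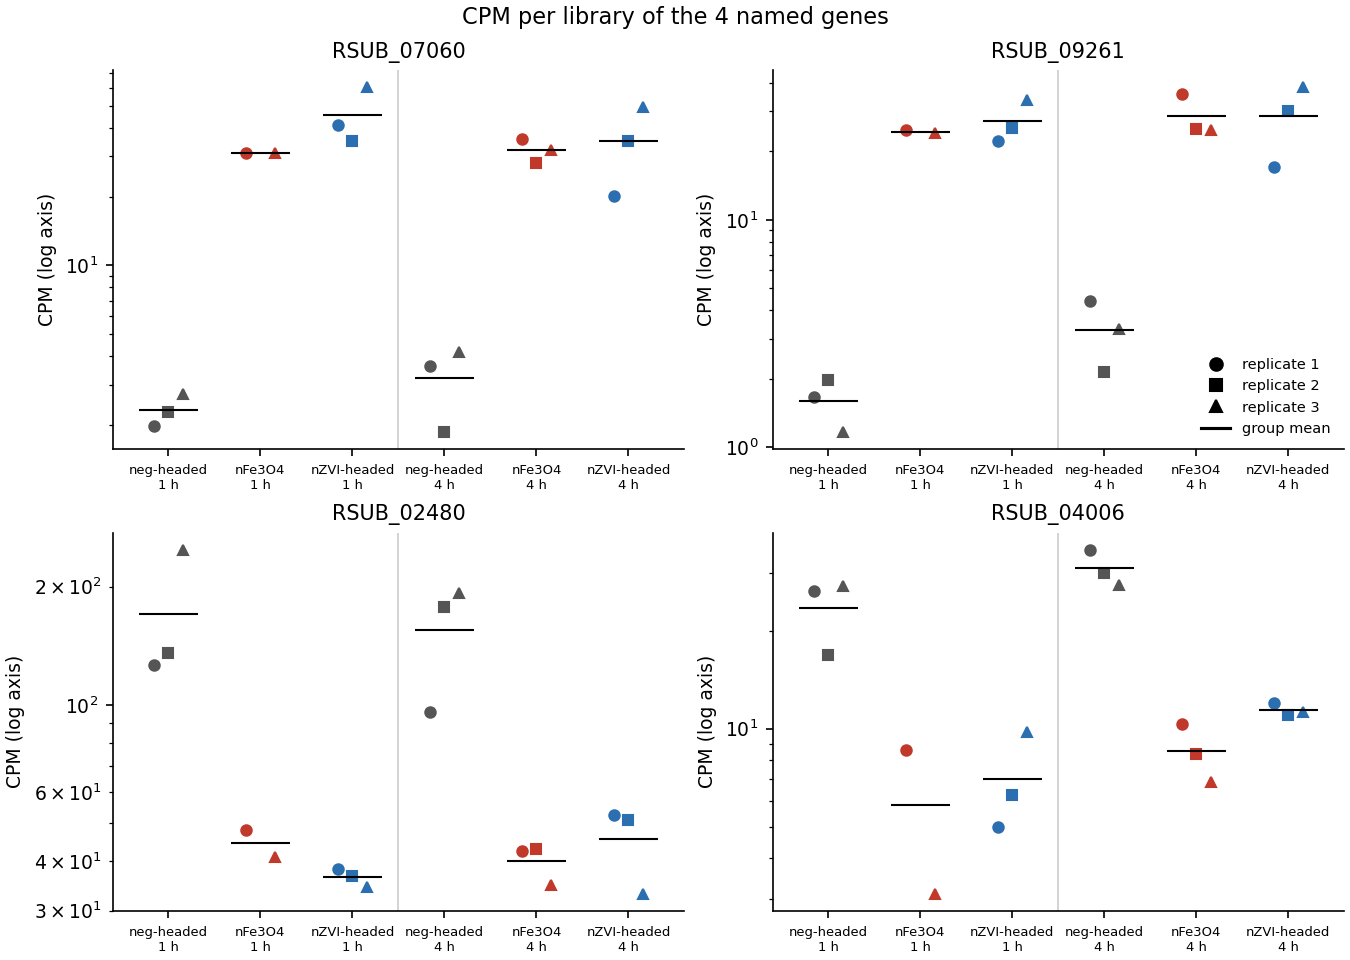
Level in CPM (log axis) of the 4 named genes in each library, with nFe3O4 in red, neg-headed in grey and nZVI-headed in blue, 1 h on the left and 4 h on the right of each panel. Marker shapes are replicates and the bar is the group mean. In each panel the nFe3O4 libraries of 4 h lie apart from the neg-headed ones, as between 28.1 and 35.9 CPM against 1.87 to 4.18 CPM for RSUB_07060.

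The nZVI-headed libraries of 4 h, set beside these values, stood at 20.2, 35.1 and 49.7 CPM for RSUB_07060, at 17.1, 30.2 and 38.2 CPM for RSUB_09261, at 52.6, 51.1 and 33.1 CPM for RSUB_02480 and at 12.03, 10.99 and 11.25 CPM for RSUB_04006. For RSUB_07060, RSUB_09261 and RSUB_02480 they overlapped the nFe3O4 libraries, and for RSUB_04006 they lay just above them. Against the neg-headed libraries, 2353 of 11841 genes (19.9%) changed in nZVI-headed cultures, but both comparisons use the same neg-headed libraries and likeness between them is not read. The direct comparison of nZVI-headed with nFe3O4 cultures at 4 h called 1 gene (0.00845%), RSUB_12574, by edgeR's test. At an unadjusted p below 0.05 it gave 835 of 11841 genes, and DESeq2 called 27 of 10693 genes. Some genes pass an unadjusted threshold with no difference between the groups, so the 835 are not read as changed. RSUB_12574 stood at 38.9, 41.1 and 38.3 CPM with nFe3O4, at 46.7, 58.1 and 56.7 CPM in neg-headed and at 13.6, 13.2 and 14.6 CPM in nZVI-headed libraries. The groups lay in 3 separate bands, and the nFe3O4 band lay between the others. Its log2 fold change against neg-headed was -0.45 (SE 0.10, edgeR's adjusted p = 0.00654), and that of nZVI-headed against nFe3O4 was -1.51 (SE 0.11, edgeR's adjusted p = 3.20e-06). By the headings of the transformed table, this 1-gene comparison is the one between magnetite and particle-free cultures.

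The main axis of difference parted the neg-headed libraries from the other 6, and did not part nFe3O4 from nZVI-headed libraries. In a principal component analysis of the 9 libraries of 4 h over the 6224 genes whose mean log2 CPM was 3 or more, the first component held 51.0% of the variance. It placed the neg-headed libraries between -0.33 and -0.22 and the nFe3O4 libraries between 0.07 and 0.20, with the nZVI-headed ones between 0.04 and 0.26. Pairs of an nFe3O4 and a neg-headed library differed by a root mean square of 0.422 to 0.643 on the log2 scale, and pairs of neg-headed libraries by 0.198 to 0.320. Pairs of nFe3O4 libraries, at 0.276 to 0.539, overlapped the distances between the groups.

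That wide range came from nFe3O4 replicate 3. The second component, with 28.8% of the variance, set this library at -0.40, while the other 8 libraries lay between -0.04 and 0.17. Its distance to nFe3O4 replicates 1 and 2 was 0.456 and 0.539, against 0.276 between those 2 libraries. In 223 genes replicate 3 was at least 2-fold below both other nFe3O4 libraries, and in 1 gene, RSUB_05305, it was at least 2-fold above both. No other library of 4 h lay at least 2-fold from both others of its group in more than 9 genes of the 6224. These genes were chosen by that distance, so their number describes this library and carries no test.

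**Figure D2:**
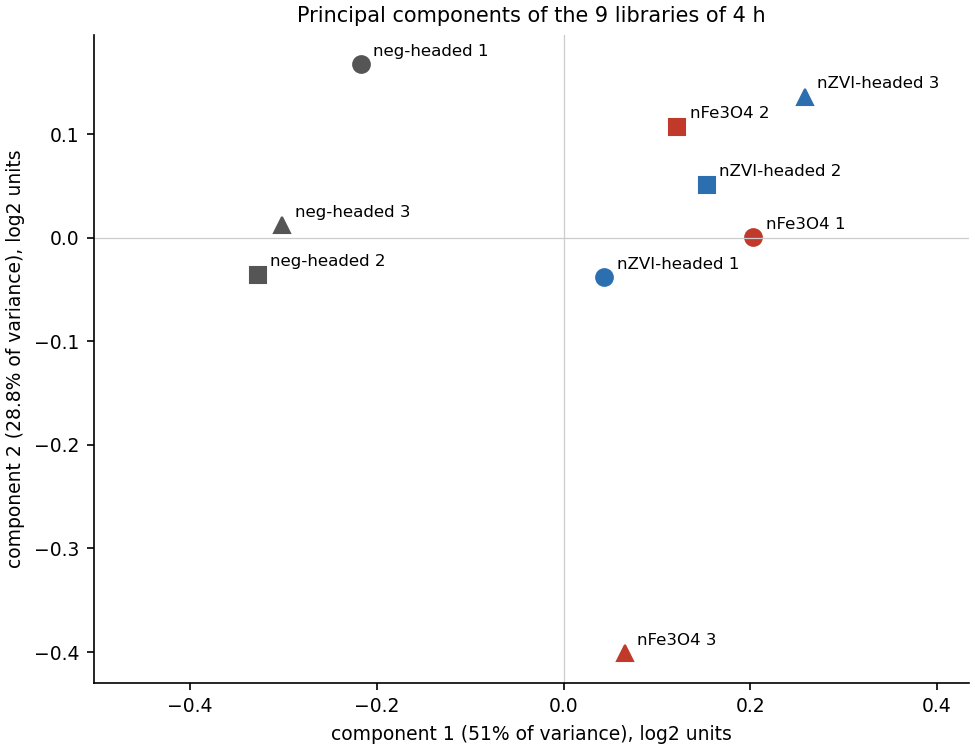
First and second principal component of the 9 libraries of 4 h, in root mean square log2 units per gene, coloured by group with marker shapes for replicates. The neg-headed libraries lie to the left, at -0.33 to -0.22, and nFe3O4 replicate 3 lies alone at -0.40 on the second component.

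The 2 genes lowest in replicate 3 relative to replicates 1 and 2, chosen after their values were seen, were RSUB_02911 and RSUB_11653. RSUB_02911 stood at 20.1, 33.8 and 2.96 CPM in nFe3O4 replicates 1 to 3 and at 16.2, 8.20 and 10.3 CPM in the neg-headed ones. RSUB_11653 stood at 18.4, 31.7 and 2.88 CPM against 16.9, 8.94 and 9.60 CPM. In both, replicates 1 and 2 were above and replicate 3 below all neg-headed libraries, and neither gene passed edgeR's test of nFe3O4 against neg-headed (adjusted p = 0.472 and 0.547).

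The level of the 223 genes also varied between the other libraries of the series. Relative to the mean of the neg-headed libraries of 4 h, their median log2 level was -1.55 in nFe3O4 replicate 3, and 0.48 and 0.97 in replicates 1 and 2. At 1 h it was -1.42 in nFe3O4 replicate 3 and 0.45 in replicate 1, and all 223 genes were lower in replicate 3 than in replicate 1 at that hour. Of all 6224 genes, 3714 had the same sign of difference for nFe3O4 replicate 3 at both hours. The protocol samples each culture at both hours, so the libraries numbered 3 may come from 1 culture. In the neg-headed libraries of 4 h the median was 0.47, -0.33 and -0.14 for replicates 1 to 3, and in the nZVI-headed ones 0.10, 0.63 and 1.01. Of these 223 genes, 11 passed the test of nFe3O4 against neg-headed at 4 h, 2 higher and 9 lower, a share far under the 23.0% of all genes. That share is set by the choice, since a gene with a wide spread in a group is less likely to pass.

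The spread within the nFe3O4 group, replicate 3 included, was set beside that of the other groups. Among the 6224 genes, the median standard deviation of the log2 level was 0.156 over the nFe3O4 libraries and 0.131 over the neg-headed ones, and it was the larger of the pair with nFe3O4 in 3740 genes (60.1%). A range of at least 2-fold between libraries was found in 296 genes with nFe3O4, in 67 genes in neg-headed and in 114 genes in nZVI-headed cultures. A range of at least 4-fold was found in 143 genes with nFe3O4 and in 0 genes in either other group. These counts rest on replicate 3: nFe3O4 replicates 1 and 2 were 2-fold apart in 14 genes, against 260 and 252 genes for the pairs with replicate 3. Pairs of neg-headed libraries were 2-fold apart in 4 to 59 genes.

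Without nFe3O4 replicate 3 the count of changed genes was 1806, of which 1031 were higher and 775 lower. Without nFe3O4 replicate 1 it was 1704, and without neg-headed replicate 3 it was 1754. In the fit without nFe3O4 replicate 3, 1717 of the changed genes were among the 2720 with the same direction. In 0 genes did both fits give a change with opposite directions. All 4 named genes kept an adjusted p below 0.05 without each of the 6 libraries in turn. They were picked as the largest changes in these same libraries, so this is no separate test.

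The libraries of the groups did not overlap in 4459 genes (37.7% of those tested), with nFe3O4 above in 2307 genes (19.5%) and below in 2152 (18.2%). Of those, 1412 and 1222 also passed edgeR's test. Of the 7382 genes whose libraries overlapped, 86 passed it. At an unadjusted p below 0.05 the test gave 4224 of 11841 genes.

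Larger changes were more often rises than falls. At least 2-fold, 294 genes were higher and 218 lower with nFe3O4. At least 4-fold it was 65 higher and 20 lower, and at least 8-fold 19 higher and 1 lower. With RLE (relative log expression) in place of TMM (trimmed mean of M values) size factors, 271 genes were at least 2-fold higher and 244 lower. The overall balance depended on the scaling: with RLE 1284 genes were higher and 1433 lower, so no prevailing direction is read over all changed genes. Without nFe3O4 replicate 1 the 2-fold counts came to 238 higher and 231 lower.

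**Figure D3:**
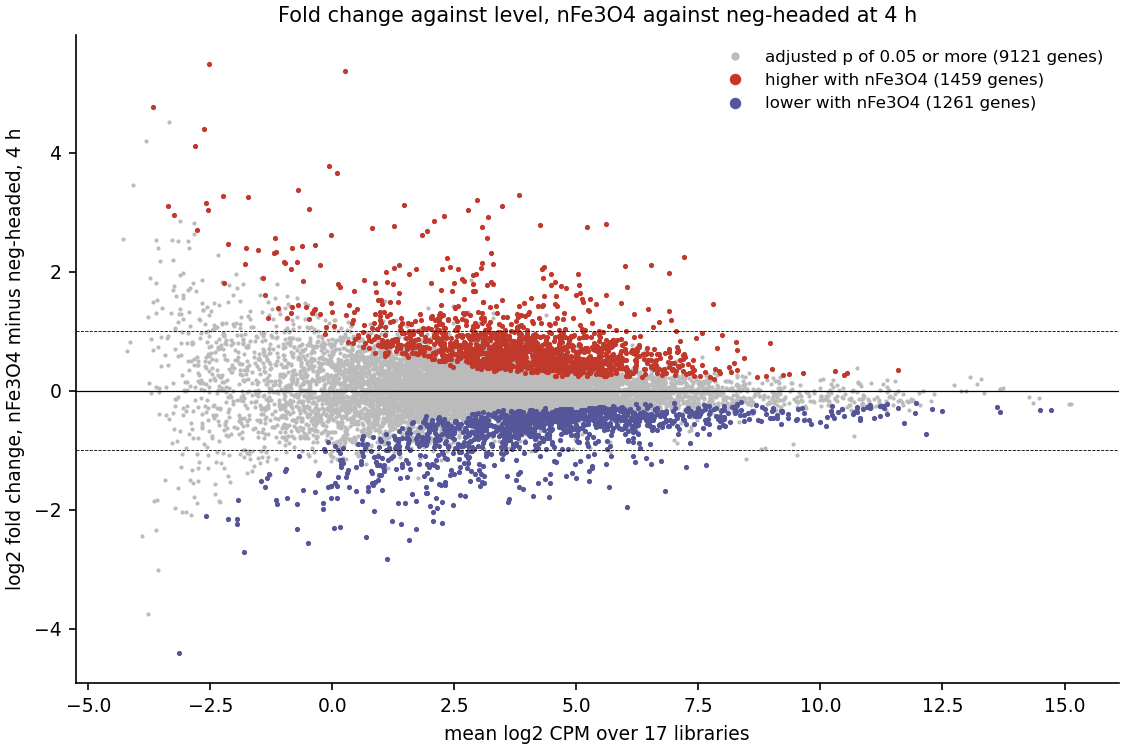
Log2 fold change of nFe3O4 against neg-headed cultures at 4 h (vertical axis) against the mean log2 CPM over 17 libraries (horizontal axis), 1 point per gene. Red points are the 1459 genes higher and blue points the 1261 genes lower with nFe3O4, and dashed lines mark 2-fold.

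The balance of rises and falls differed with the level of the gene. The genes were split by their mean level in the 6 libraries into 5 classes of like size, class 1 the lowest. In class 1, with a median of 1.02 CPM, 136 genes were higher and 87 lower with nFe3O4. In class 3, with a median of 8.84 CPM, 372 were higher and 230 lower. In class 5, with a median of 75.7 CPM, the order turned, with 314 higher and 436 lower. These orders were the same with RLE, at 126 and 90, 322 and 247, and 271 and 522. In classes 2 and 4 the order turned with the scaling, from 219 higher and 176 lower to 205 and 206, and from 418 and 332 to 360 and 368.

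The share of genes that passed rose with level, from 9.41% in class 1 to 16.7% in class 2, 25.4% in class 3 and 31.7% in classes 4 and 5. The median standard error of the log2 fold change fell from 0.41 in class 1 to 0.11 in class 5, so a smaller change could pass there. The median size of a change that passed was 1.32 on the log2 scale in class 1 and 0.46 in class 5. CPM values here are not corrected for gene length, so the classes rank genes by reads and not by transcripts.

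**Figure D4:**
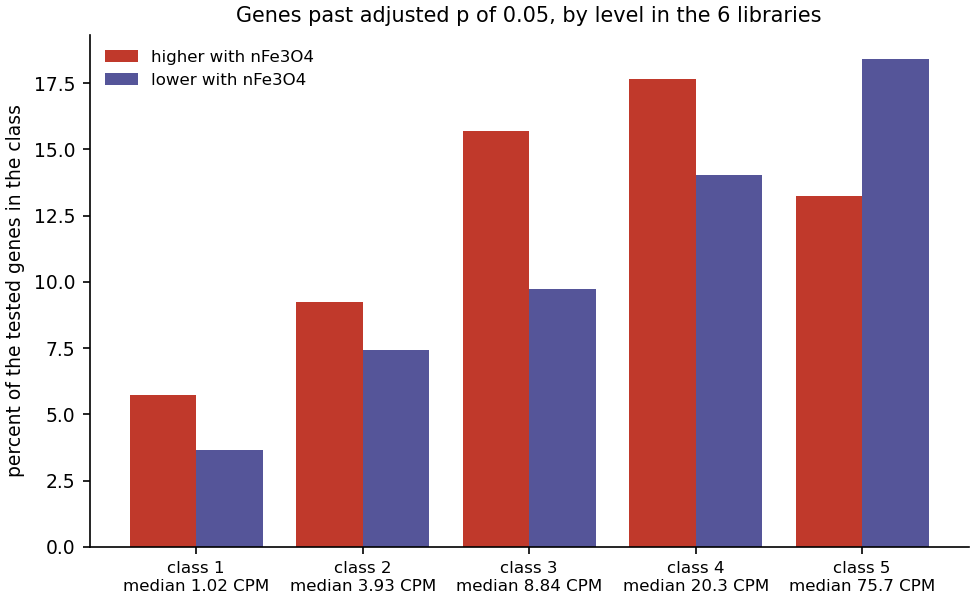
Percent of the tested genes in each of the 5 classes of level that were higher (red) or lower (blue) with nFe3O4 at an adjusted p below 0.05, with the median CPM of the class under each pair of bars. Falls outnumber rises in class 5, at 436 genes against 314.

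The part of the reads taken by the most abundant transcripts was lower in each nFe3O4 library than in any neg-headed one, in a design too small for that to pass a test. The 10 most counted genes of a library held 23.5%, 24.5% and 25.1% of its counts in nFe3O4 replicates 1 to 3, and 26.3%, 26.4% and 25.5% in the neg-headed ones. The groups did not overlap, at a mean of 24.4% ± 0.801 (SD, n = 3) against 26.1% ± 0.459 (SD, n = 3), and an exact two-sided permutation test gave p = 0.1, the smallest that 3 against 3 libraries allow (0.2 adjusted over 4 library measures). The 100 most counted genes held 55.5% ± 1.08 (SD, n = 3) against 57.3% ± 0.646 (SD, n = 3), with the same exact p = 0.1. In nZVI-headed replicates 1 to 3 of 4 h the 10 most counted genes held 24.3%, 22.8% and 23.4%, also below all neg-headed libraries. Of the 12 genes that ranked in the first 10 in any of the 6 libraries, 4 were lower and 0 higher by edgeR's test, with log2 fold changes from -0.35 to 0.04 over the 12. Over all genes tested 10.6% were lower and 12.3% higher, and in the class of highest level 18.4% were lower and 13.3% higher, so 4 of 12 genes is a small count to set against them. The number of genes with at least 1 CPM did not separate the groups, at 10831, 10580 and 10501 with nFe3O4 and 10568, 10474 and 10590 in neg-headed (exact permutation p = 0.5).

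In terms of reads, the genes called lower weighed more than those called higher. The 1261 genes called lower held 27.1% to 28.1% of the counts of the neg-headed libraries and 22.6% to 23.5% of those with nFe3O4. The 1459 genes called higher held 3.50% to 3.63% and 5.22% to 6.33%. Since the same comparison chose the genes, these shares are descriptions with no test. They are shares of a fixed read total, so a fall in abundant transcripts and a rise in the rest cannot be told apart from them.

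The earlier hour was used to ask how the 4 h difference related to that of 1 h. At 1 h, where nFe3O4 has 2 distinct libraries, 3424 genes changed between nFe3O4 and neg-headed cultures (28.9%). Of all 11841 genes tested, 1813 were higher and 1611 lower with nFe3O4 at that hour. Of the 1459 genes higher with nFe3O4 at 4 h, 951 (65.2%) were also higher at 1 h and 15 were lower. Of the 1261 genes lower at 4 h, 790 (62.7%) were lower at 1 h and 4 were higher. Taken from the other list, the same 951 genes were 52.5% of the 1813 genes higher at 1 h, and the 790 were 49.0% of the 1611 lower ones. The libraries of the hours are different, but the cultures may be the same, so the hours are not independent repeats. Across the 11841 genes the log2 fold changes of the hours correlated with r = 0.703, given as a description, since the points share cultures and the fit.

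**Figure D5:**
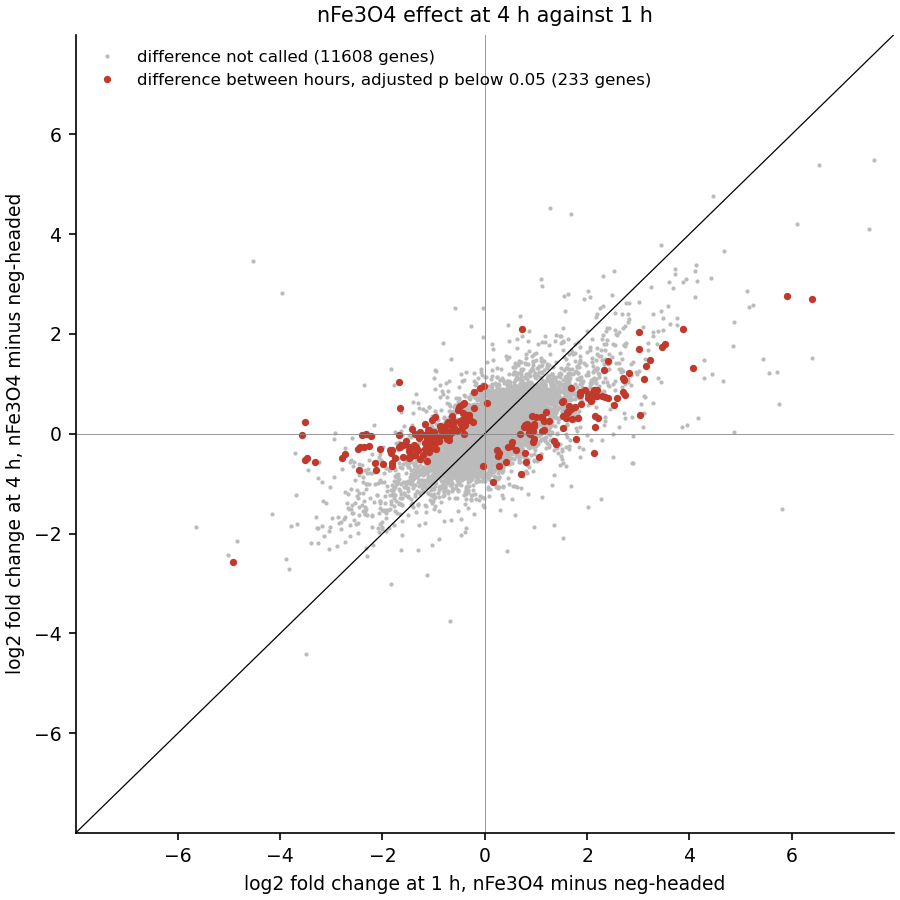
Log2 fold change of nFe3O4 against neg-headed cultures at 4 h (vertical axis) and at 1 h (horizontal axis), 1 point per gene, with the line of equal effects. The 233 red genes differed between the hours, and most lie nearer to 0 at 4 h than at 1 h.

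The difference of the effects itself passed edgeR's test in 233 genes (1.97%), with the value of 4 h above that of 1 h in 141 and below it in 92. In 128 of the 141 and 84 of the 92 the size of the effect was smaller at 4 h. Over all 11841 genes the effect was the larger at 1 h in 7080 (59.8%). The effect of 1 h rests on 2 nFe3O4 libraries, and the part of fewer libraries in that share was not tested. Since the 233 genes were chosen by the difference itself, their counts are descriptions. The median log2 fold change of the 141 genes was -1.05 at 1 h and -0.03 at 4 h, and that of the 92 genes was 1.67 and 0.35. In 15 of the 141 genes and 4 of the 92 the effect passed at both hours in opposite directions. The count was 18 without nFe3O4 1 h replicate 3, 143 without neg-headed 1 h replicate 1, 100 without neg-headed 1 h replicate 3, 78 without neg-headed 4 h replicate 1 and 125 without nFe3O4 4 h replicate 3. DESeq2 called 460 genes. With each culture, by its replicate number, as a block across the hours the count was 604, of which 213 were among the 233 with the same direction.

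RSUB_07490 had the largest such difference under the naming rule. At 1 h it was at 36.7 and 13.7 CPM in nFe3O4 replicates 1 and 3 and at 257, 226 and 414 CPM in neg-headed replicates 1 to 3. At 4 h it was at 510, 599 and 454 CPM with nFe3O4 and at 456, 553 and 591 CPM in neg-headed. The groups were wide apart at 1 h and overlapped fully at 4 h, where the log2 fold change was -0.03 (SE 0.37, edgeR's adjusted p = 0.961). Subtracting the effect of 1 h from it gave 3.54 (SE 0.59, adjusted p = 0.00823, same test).

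RSUB_11916 followed a like course. It went from 4.24 and 1.63 CPM with nFe3O4 at 1 h to 31.4, 35.1 and 29.3 CPM at 4 h, while the neg-headed libraries went from 33.1, 28.4 and 36.1 CPM to 45.5, 42.6 and 45.0 CPM. At 4 h the nFe3O4 libraries were still all below the neg-headed ones, though the log2 fold change of -0.48 (SE 0.32, adjusted p = 0.309, edgeR) did not pass. The difference between the hours was 3.01 (SE 0.52, adjusted p = 0.00966, edgeR). Without nFe3O4 1 h replicate 3, its adjusted p was 0.0811 (log2 difference 2.46) and that of RSUB_07490 was 0.078 (2.99), by the same test.

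RSUB_11161 and RSUB_11583 were higher with nFe3O4 at both hours, and less so at 4 h. RSUB_11161 stood at 30.1 and 38.5 CPM with nFe3O4 at 1 h against 3.79, 6.65 and 5.22 CPM in neg-headed, and at 19.0, 13.96 and 11.6 CPM against 8.27, 7.81 and 8.80 CPM at 4 h. Here the nFe3O4 level was lower and the neg-headed level higher at 4 h than at 1 h, without overlap. RSUB_11583 stood at 53.7 and 66.2 CPM with nFe3O4 at 1 h and at 78.8, 65.4 and 69.7 CPM at 4 h, and the neg-headed libraries went from 7.24, 7.90 and 4.98 CPM to 31.8, 28.7 and 23.2 CPM. The difference for RSUB_11583 thus came with a higher neg-headed level at 4 h. The log2 fold changes at 4 h were 0.84 (SE 0.26, adjusted p = 0.0286) for RSUB_11161 and 1.35 (SE 0.20, adjusted p = 3.41e-04) for RSUB_11583 by edgeR. The differences between the hours were -1.87 (SE 0.38, adjusted p = 0.0194) and -1.81 (SE 0.30, adjusted p = 0.00823) by the same test. That of RSUB_11161 had an adjusted p of 0.118 (-1.68) without nFe3O4 1 h replicate 3, 0.0519 (-1.69) without neg-headed 1 h replicate 1, 0.058 (-1.87) without neg-headed 1 h replicate 3 and 0.0566 (-1.87) without neg-headed 4 h replicate 1, and with lane 1 alone it was 0.142 (-1.45). That of RSUB_11583 had an adjusted p of 0.0774 (-1.65) without nFe3O4 1 h replicate 3, by edgeR.

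The authors' own comparisons of 4 h followed the names of the transformed table. One authors' deposited table compares nZVI with nFe3O4 and lists 5815 genes. Its log2 fold changes over 5651 shared genes, from the authors' deposited table, had r across genes of -0.984 with nFe3O4 against neg-headed here. It listed 2693 of the 2720 genes changed here, and all 2693 had the opposite sign there. The log2 fold change in that same authors' deposited table was -3.26 for RSUB_07060, -3.17 for RSUB_09261, 1.99 for RSUB_02480 and 1.90 for RSUB_04006. In the authors' deposited table of nFe3O4 against neg, which lists 1587 genes, RSUB_07060, RSUB_09261 and RSUB_02480 were not listed and RSUB_04006 had -0.43. Over 1551 shared genes that deposited table had r of 0.340 with nFe3O4 against neg-headed here and -0.992 with nZVI-headed against nFe3O4. For nZVI-headed against nFe3O4, edgeR's test called 1 gene here and DESeq2 called 27, beside the 1587 that the authors list. Why these counts differ was not tested.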

How the data were processed

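The members compared and the lists shown were chosen with earlier results of these data known. The authors deposited 1 table of whole read counts per gene and lane, not normalized, per the file headers, and 1 table of 50 genes on the log2 scale, centred regularized log values by its name. The authors' deposited tables of comparisons hold DESeq2 output, of which the log2 fold changes were used here; per the file headers they also give a Wald score and a raw and adjusted p-value, and those used list genes with an adjusted p below 0.05. HISAT2, Trimmomatic, SAMtools, bedtools 2.27.1, bcl2fastq, DESeq and DESeq2 are named in the submitters' processing notes. Genome build and annotation: not given in the sources used here. Of lane counts from 1 to 20, 63.5% were even.

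The 4 lane columns of a library were summed. The columns of nFe3O4 1 h replicate 2 were copies of 1 column of replicate 1 and were left out. The 6 libraries held 28128576 to 43364641 counts. The chi-square divided by its degrees of freedom was 2.59 to 3.57 between lanes of a library, and 18.5 (neg-headed) and 45.8 (nFe3O4) between libraries of a group, so counting error was the smaller part of the spread. The test was run in R 4.3.3 with limma 3.58.1 and edgeR 4.0.16: TMM scaling, a low-count filter by group that left 11841 of 12181 genes, 6 group means over 17 libraries, and the quasi-likelihood test. CPM use TMM-scaled library sizes and are given as mean ± SD over libraries where averaged. Standard errors come from the test statistic. The rule for named genes takes the 2 largest rises and 2 largest falls that pass the threshold, where the libraries of the groups do not overlap and the mean log2 CPM is 3 or more; for the difference between the hours, separation at either hour sufficed. Alternatives were RLE size factors, other low-count filters, DESeq2 1.42.0, fewer libraries, 1 lane, other thresholds and replicate blocks.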

Additional observations from a re-analysis of the deposited data

Results flagged for a closer look

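The effect of nFe3O4 against neg-headed cultures differed between 4 h and 1 h in 233 genes by the test of the difference itself (edgeR's quasi-likelihood test, Benjamini-Hochberg adjusted p below 0.05). The difference, on the log2 scale and as 4 h minus 1 h, was 3.54 for RSUB_07490 and 3.01 for RSUB_11916, whose falls at 1 h were gone or smaller at 4 h. It was -1.87 for RSUB_11161 and -1.81 for RSUB_11583, whose rises were smaller at 4 h. Each of these 4 lost its call without nFe3O4 1 h replicate 3, which leaves 1 nFe3O4 library at 1 h, assumed there to vary like the other groups.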

How the results depend on the processing

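For nFe3O4 against neg-headed at 4 h, the count of 2720 changed genes became 1466 with lane 1 alone, 1218 at an adjusted p below 0.01, and 238 when tested against a fold of at least 1.5, of which 160 were higher and 78 lower. Without 1 library at a time it lay between 1704 and 2923. DESeq2 (2902), RLE size factors (2717), the 9 libraries of 4 h alone (2300) and the 6 libraries of the comparison alone (1845) stayed within 1.5 times. No gene that passed both in the main fit and in one of these alternatives had opposite directions. Genes that lost their call were not looked at in this way, so it is no test of direction. The 4 named genes kept their direction and their call in every alternative run. They were chosen in these data as the largest changes, so this does not speak for other genes. The difference between the hours, 233 genes, became 114 with lane 1 alone, 460 with DESeq2, 604 with a replicate block by culture over nFe3O4 and neg-headed libraries only, and 18 to 231 without 1 library at a time. For nZVI-headed against nFe3O4 the count of 1 became 27 with DESeq2 and 1 to 4 without 1 library at a time. The labels do not say whether a replicate number links an nFe3O4 and a neg-headed culture. Deviations of same-numbered libraries of these groups at 4 h from their group means correlated across genes at 0.347, -0.212 and 0.119. For pairs with different numbers the correlation ranged from -0.429 to 0.328. Across the hours, where a number may mark 1 culture, the correlation was 0.438 for nFe3O4 replicate 1 and 0.604 for replicate 3. For neg-headed replicates 1 to 3 it was 0.0713, 0.0146 and -0.023. With 2 nFe3O4 libraries at 1 h, their deviations are mirror images. The nFe3O4 replicate 2 of 4 h correlated at 0.403 with replicate 1 of 1 h, so 0.438 does not by itself mark 1 culture. A replicate block by number gave 2444, 163 and 1 genes in the 3 comparisons. The test was least precise for genes of the lowest level class, where the median standard error was 0.41 on the log2 scale. The part of read depth in this was not tested. The 1 h comparison has 2 nFe3O4 libraries.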

Other observations

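Genes with consecutive locus numbers tended to differ alike between nFe3O4 and neg-headed cultures at 4 h. Among 616 pairs of consecutive numbers in which both genes changed, 375 (60.9%) changed in the same direction, and over all 10827 such pairs the log2 fold changes correlated with r = 0.0844. At 2 numbers apart, 291 of 591 pairs (49.2%) did so and r was 0.0066. At 500 apart it was 259 of 547 (47.3%), with r = -0.0148. The pattern was noticed in these data, r values over pairs of genes are descriptions, and the sources used here do not say how locus numbers follow the genome or whether reads of overlapping genes were split.

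A few genes were found in 1 group only, at very low counts. With 0 counts in all neg-headed libraries and at least 10 over the nFe3O4 libraries there were 5 genes, none above 14 summed counts, and 1 of them changed by edgeR's test. With 0 counts in all nFe3O4 libraries and at least 10 in neg-headed there were 2 genes, the larger with 17 summed counts, and 0 of them changed by that test.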
